A study of Mus musculus with 4 samples.

Results

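The genes described here are p53 (Trp53), its inhibitors Mdm2 and Mdm4, and 7 target genes (Ccng1, Zmat3, Sesn1, Sesn2, Trp53inp1, Bax and Perp), 10 of the 23847 rows of the table, found by their symbols. They were measured by RNA-seq of whole back-skin epidermis of mice at postnatal day 20, in 2 Irx5KO (Irx5-/-) and 2 wild-type (WT, Irx5+/+) libraries, 1 per mouse, as the design counts its animals. Irx5 encodes a homeodomain transcription factor, and the title of the series links it to DNA damage repair, the setting in which p53 is best known. All samples went through 2 h of trypsin at 34 °C and mechanical separation of the epidermis, and the labels give neither the Irx5 allele nor the sex of the mice. Levels are in FPKM, which scales the fragments of a gene by its length and by the depth of the library, as deposited by the authors. Changes are Irx5KO minus WT on log2(FPKM + 1), with p-values from limma adjusted over all 11643 tested rows. A call is an adjusted p below 0.05. The labels name no litters, so each p-value speaks only of how far these 4 samples spread. Where 1 library is left out, the spread of its genotype is not measured, so a call can be lost while the change stays.

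p53 is a transcription factor that is kept scarce in unstressed cells because MDM2, a ubiquitin ligase, marks it for degradation, and MDM4, a relative of MDM2, holds its activation domain. Damage and other stress release p53 from them, mainly without a change in its mRNA, and p53 then switches on genes of cell cycle arrest, cell death, DNA repair and metabolism, as well as Mdm2 itself, which closes a feedback loop. In skin the pathway is known for the response to ultraviolet light, and the p53 relative p63, which directs stratification, shares some of its targets.

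The libraries carried an epidermal profile, with Krt5, a basal keratin, at 2976 to 4394 FPKM and all 5 fibroblast markers at or below 1.18 FPKM. Of 5 basal markers 1, Krt14, was lower (1520 and 1576 FPKM in Irx5KO, against 4807 and 5211 FPKM in WT), and the other 4 did not pass, with a median of 0.0099 over the 5. Of 5 suprabasal markers 1, Dsg1a, was higher, and of 4 granular markers Casp14 was higher and Ivl lower. Irx5 was at 10.0132 and 10.0845 FPKM in Irx5KO libraries and 17.4 and 16.4 FPKM in WT libraries, 59.5% of the WT mean (log2 fold change -0.70, adjusted p = 0.0117), and whether these reads fall in the deleted part is not known here. The Irx5KO libraries had Y-linked transcripts (Eif2s3y 70.9 and 75.7 FPKM, against 0.035 and 0.0422 FPKM in WT) and almost no Xist, so that sex and genotype cannot be told apart in any result below. Immediate-early genes, which tissue dissociation is known to induce, summed to 2811 and 5222 FPKM in Irx5KO and 13740 and 12773 FPKM in WT libraries, with 17 of 19 lower. Of 5 Langerhans cell markers 3 were lower (Cd207 10.4 and 15.1 FPKM in Irx5KO, against 107 and 96.8 FPKM in WT), while summed T cell markers overlapped between the genotypes. Of 5 hair follicle markers 3 were higher (Lhx2, Cd34 and Lgr5) and Krt17 was lower. Under the median of ratios, with no filter or with a pseudocount of 0.1, 1 was higher. The marker and immediate-early counts given here stand beside 26.9% of all tested rows called higher and 9.22% called lower. The part of sex, dissociation and cell makeup in the results was not tested, and in bulk tissue fewer cells of a type and less RNA per cell cannot be told apart. From the steps in low values the depth was estimated at 52200000 to 60100000 fragments per library, which put 680 to 252777 fragments behind each value of the 10 genes, on the longest annotated transcript.

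All 10 genes passed the filter on low values, with at least 1.49 FPKM in every library. Sesn1, Trp53inp1, Ccng1, Mdm4 and Zmat3 were higher in Irx5KO and Mdm2 and Sesn2 were lower, while Trp53, Bax and Perp did not pass the test. The 5 higher and 2 lower calls stand beside 26.9% of all tested rows called higher and 9.22% called lower. The libraries of the genotypes did not overlap for 8 of the 10 genes, against 72.3% of all tested rows, and 7 were called, against 36.1%. Since the genes were chosen with results known, no test was made of these shares. Without Irx5KO replicate 1 or WT replicate 2 the higher genes came to 3. The median change of all tested rows was 0.26, and scaling by the median of ratios, which took it to -0.0017, gave 1226 higher and 1613 lower rows in place of 3127 and 1073. On that scale 3 of the 10 genes were higher and 2 lower (10.5% and 13.9% of all rows), with Mdm4 and Zmat3 no longer past the threshold. Sesn1, Trp53inp1, Ccng1, Mdm2 and Sesn2 passed under each of the 13 alternative processings that were run.

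**Figure D1:**
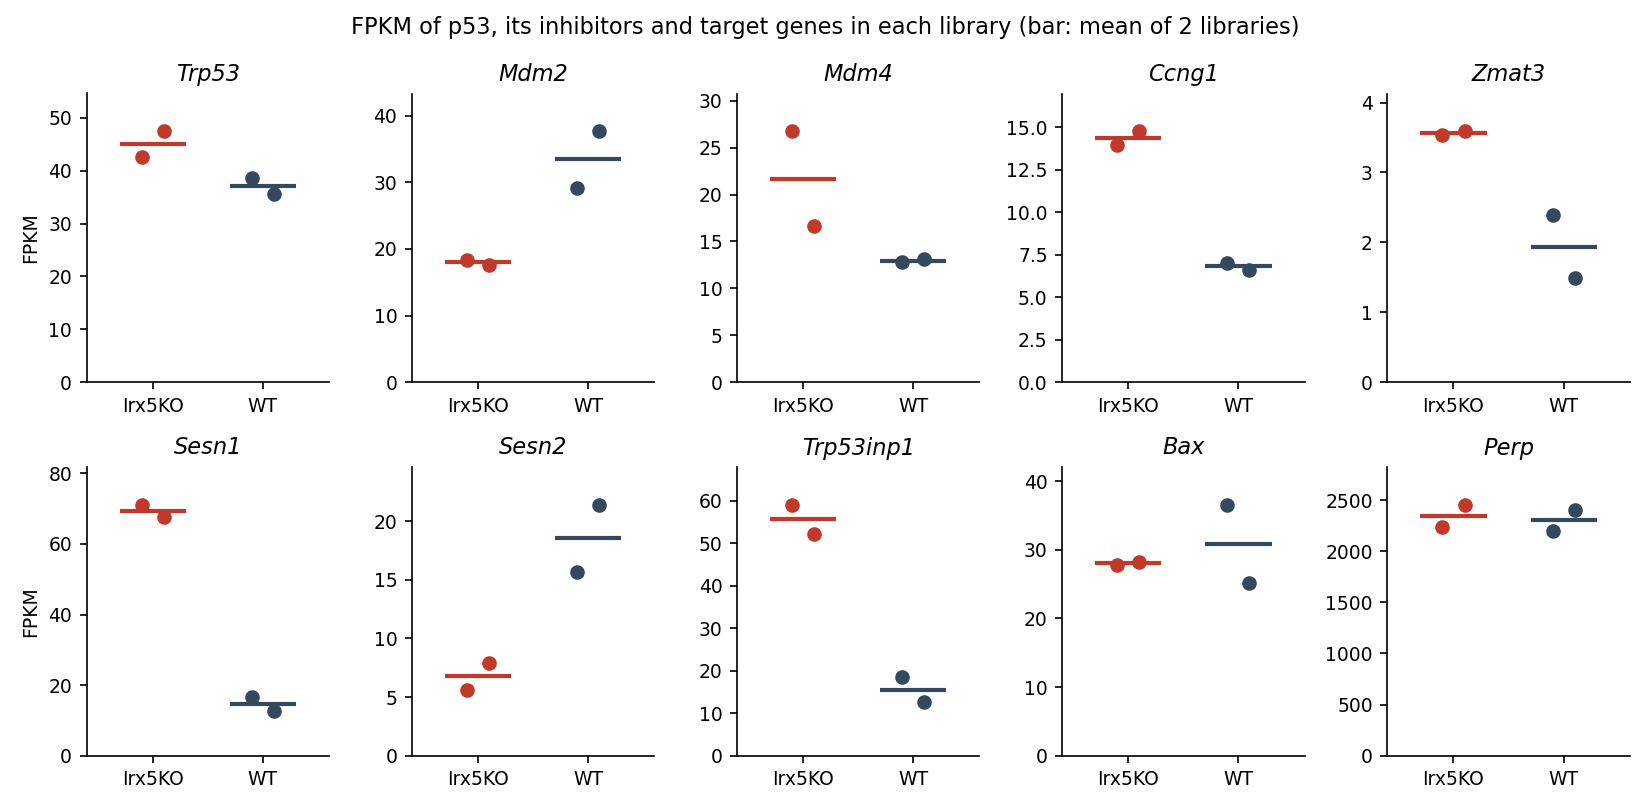
FPKM of the 10 genes in each library, 1 point per library and a bar at the mean of the 2 libraries, each panel with its own linear axis from 0. Irx5KO points lie above WT points for Trp53, Mdm4, Ccng1, Zmat3, Sesn1 and Trp53inp1 and below them for Mdm2 and Sesn2, while those of Bax and Perp overlap.

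The sequences below are 250 bases before an annotated transcription start (RefSeq, GRCm38.p6, the mm10 assembly). They are shown for whether these bases hold, or lack, a motif of the element that p53 binds. Bases outside these stretches, within the genes or farther away, were not searched. Of the 10 genes 7 had a window in the RefSeq table, 9 windows in all, and Perp, Trp53inp1 and Zmat3 had none. Capitals mark each match to a 10-base consensus that is 1 of the pair of such motifs in a full p53 binding element, searched on both strands, and each sequence reads 5′ to 3′ on the strand of its gene. The windows are chr10:41887189-41887438 (plus strand, the downstream of its annotated starts), chr10:117710759-117711008 (minus), chr11:40755287-40755536 (minus), chr11:69580109-69580358 (plus), chr7:45466899-45467148 (minus) and chr4:132510457-132510706 (minus).
Sesn1: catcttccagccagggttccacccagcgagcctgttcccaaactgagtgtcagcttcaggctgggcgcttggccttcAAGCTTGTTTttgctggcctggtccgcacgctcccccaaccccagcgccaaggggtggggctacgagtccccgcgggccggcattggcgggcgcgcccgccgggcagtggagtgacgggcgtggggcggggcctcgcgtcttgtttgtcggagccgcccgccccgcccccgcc
Mdm2: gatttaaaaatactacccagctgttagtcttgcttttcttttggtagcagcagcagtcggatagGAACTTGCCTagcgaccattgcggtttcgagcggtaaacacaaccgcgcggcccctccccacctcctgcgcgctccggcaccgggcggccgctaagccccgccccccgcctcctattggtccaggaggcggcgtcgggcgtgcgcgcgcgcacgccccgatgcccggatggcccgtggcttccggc
Ccng1: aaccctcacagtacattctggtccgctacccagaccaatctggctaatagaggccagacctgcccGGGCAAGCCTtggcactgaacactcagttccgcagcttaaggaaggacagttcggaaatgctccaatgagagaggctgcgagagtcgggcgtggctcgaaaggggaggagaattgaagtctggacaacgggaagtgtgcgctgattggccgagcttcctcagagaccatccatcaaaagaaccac
Trp53: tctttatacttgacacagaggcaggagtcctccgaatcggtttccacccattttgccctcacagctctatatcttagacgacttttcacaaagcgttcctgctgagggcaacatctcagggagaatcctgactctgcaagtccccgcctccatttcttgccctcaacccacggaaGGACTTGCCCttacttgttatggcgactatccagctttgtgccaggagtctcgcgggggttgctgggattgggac
Bax: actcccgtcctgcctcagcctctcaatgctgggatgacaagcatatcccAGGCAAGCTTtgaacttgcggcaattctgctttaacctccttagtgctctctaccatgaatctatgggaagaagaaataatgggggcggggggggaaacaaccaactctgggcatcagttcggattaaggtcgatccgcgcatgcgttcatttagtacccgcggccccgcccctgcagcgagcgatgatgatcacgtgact
Sesn2: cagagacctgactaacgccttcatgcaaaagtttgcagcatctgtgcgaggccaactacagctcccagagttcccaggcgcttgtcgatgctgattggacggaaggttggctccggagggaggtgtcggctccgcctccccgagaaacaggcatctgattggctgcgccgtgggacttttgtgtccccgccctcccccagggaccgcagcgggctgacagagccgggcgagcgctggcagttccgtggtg

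The 10-base motif was found in 5 of the 9 windows, 1 match each, and in 7.13% of all 32851 promoter windows of the same length. Only exact matches to the single motif were searched. A full element in which 1 motif of the pair departs from the consensus would show as 1 match. An element in which both depart would be missed. Counted from the annotated start, the first base of the match lay at -173 in Sesn1, -186 in Mdm2, -185 in Ccng1, -75 in Trp53 and -201 in Bax. Sesn2, both windows of Mdm4 and the upstream window of Sesn1 held no match. The genes with a match went both ways in the expression data: Sesn1 and Ccng1 were higher in Irx5KO, Mdm2 was lower, and Trp53 and Bax did not pass. The GC box GGGCGG, searched on both strands, stood in 5 of the 9 windows and in 32.7% of all windows, and in the 9 windows it overlapped no p53 match. Both Sesn1 windows were rich in G and C (70% upstream and 71.2% downstream), as was that of Mdm2 (65.6%), beside a median of 52.4% over all windows. A match is a description of these letters and does not show binding.

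Trp53 itself lies on chromosome 11 at 69580359 to 69591873 (mm10, GENCODE M21). It had 42.7 and 47.5 FPKM in Irx5KO libraries, against 38.6 and 35.7 FPKM in WT libraries. Both Irx5KO values were above both WT values, by less than the test could call (log2 fold change 0.27, 95% confidence interval -0.12 to 0.66, adjusted p = 0.237), and the change was close to that of the median row. After scaling by the median of ratios it was -0.026. Rescaled to a fixed sum per library (TPM) it was 0.52 and passed (adjusted p = 0.0229), with the median of all tested rows at 0.50. The mRNA of p53 does not tell how much p53 protein the cells held.

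The inhibitors moved in opposite directions. Mdm2 (chromosome 10, 117688875 to 117710758) had 18.3 and 17.6 FPKM in Irx5KO libraries, against 29.2 and 37.7 FPKM in WT libraries. Both Irx5KO libraries were well below both WT libraries, and the mean was 53.7% of that in WT (log2 fold change -0.85, SE 0.183, adjusted p = 0.00851). Mdm4 (chromosome 1, 132959484 to 133030561) had 26.8 and 16.6 FPKM in Irx5KO libraries, against 12.8 and 13.1 FPKM in WT libraries. The WT libraries were close together, and the first Irx5KO library was far above the second (log2 fold change 0.66, SE 0.224, adjusted p = 0.0456). The size of the change depended on that first Irx5KO library. The call was lost with no filter, under the median of ratios and under quantile normalization. Without Irx5KO replicate 1 the change of Mdm4 was 0.34, and without WT replicate 1 or 2 it was 0.65 or 0.68.

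Set against p53 within each library, which removes the scaling of the library, the ratio of Mdm2 to Trp53 was 0.43 and 0.371 in Irx5KO and 0.757 and 1.06 in WT libraries. The genotypes did not overlap, with a difference of -1.12 on log2(FPKM + 1). The ratio of Mdm4 to Trp53 was 0.627 and 0.35 in Irx5KO, and 0.332 and 0.368 in WT libraries, so that 1 Irx5KO library lay among the WT values (difference 0.39, two-sided exact permutation p = 0.667). The smallest p that 4 libraries allow in this exact test is 0.33, which is that of the Mdm2 ratio. Of the 4 ratios computed, the lowest p adjusted over them was 0.444.

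**Figure D2:**
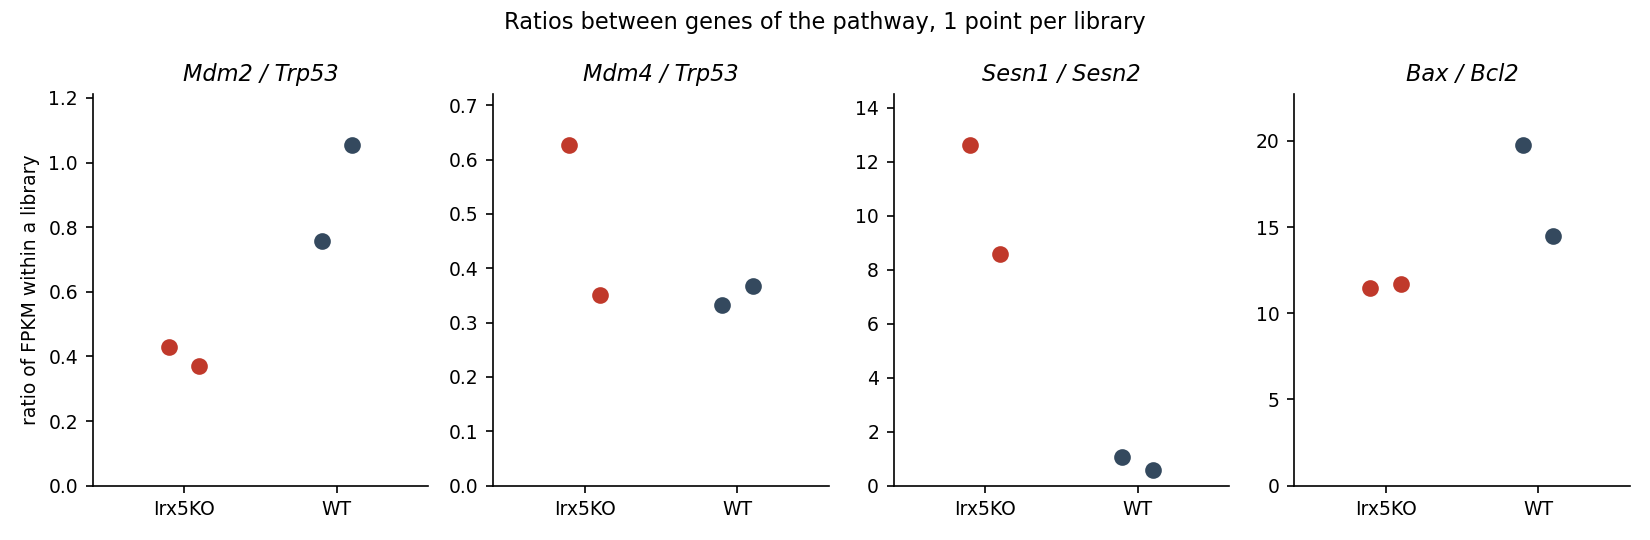
Ratio of FPKM between pairs of genes within each library, 1 point per library, on linear axes from 0. Irx5KO libraries lie below WT libraries for Mdm2 to Trp53 and for Bax to Bcl2, and above them for Sesn1 to Sesn2, where they read 12.6 and 8.57 against 1.06 and 0.592.

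Of the 10 genes Sesn1 had the most positive change and Sesn2 the most negative. Both encode sestrins, stress-induced proteins that bind the GATOR2 complex and restrain the growth kinase mTORC1. Sesn1 (chromosome 10, 41809935 to 41908424) had 71.1 and 67.7 FPKM in Irx5KO libraries, against 16.6 and 12.7 FPKM in WT libraries. The replicates lay close together and the genotypes far apart, at 4.75 times the WT mean (log2 fold change 2.18, SE 0.185, adjusted p = 1.02e-04). It ranked 25 of 11643 tested rows from the most positive change. Sesn2 (chromosome 4, 132492032 to 132510501) went the other way, with 5.63 and 7.91 FPKM in Irx5KO libraries, against 15.7 and 21.4 FPKM in WT libraries. Each Irx5KO value was below each WT value, and the mean was 36.5% of that in WT (log2 fold change -1.33, SE 0.215, adjusted p = 0.00248). The ratio of Sesn1 to Sesn2, 12.6 and 8.57 in Irx5KO and 1.06 and 0.592 in WT libraries, thus differed by 3.52 on log2(FPKM + 1) (two-sided exact permutation p = 0.33). Sesn3, the other sestrin gene, known as a target of FoxO factors, had 2.35 and 2.63 FPKM in Irx5KO and 3.77 and 4.04 FPKM in WT libraries. It fell by 0.49 (adjusted p = 0.0446), a call lost without Irx5KO replicate 1 or 2 or WT replicate 2.

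Trp53inp1 and Ccng1 rose with Sesn1. Trp53inp1 (chromosome 4, 11156431 to 11174379), which encodes a stress protein of nuclear bodies that promotes cell death and autophagy, had 59.1 and 52.1 FPKM in Irx5KO libraries, against 18.5 and 12.6 FPKM in WT libraries. The Irx5KO libraries were both far higher, at 3.58 times the WT mean (log2 fold change 1.79, SE 0.208, adjusted p = 5.33e-04), and it ranked 52 from the most positive change. Its relative Trp53inp2, which acts in autophagy, had 25.8 and 29.6 FPKM in Irx5KO and 18.6 and 23.9 FPKM in WT libraries and did not pass (adjusted p = 0.143). Ccng1 (chromosome 11, 40748552 to 40755311), which encodes cyclin G1, a partner of protein phosphatase 2A that feeds back on MDM2, had 13.9 and 14.8 FPKM in Irx5KO libraries, against 7.04 and 6.57 FPKM in WT libraries. The replicates of each genotype nearly coincided and the genotypes were clearly apart, at 2.11 times the WT mean (log2 fold change 0.98, SE 0.164, adjusted p = 0.00294). Zmat3 (chromosome 3, 32334792 to 32366014), an RNA-binding zinc finger gene of low level, had 3.53 and 3.59 FPKM in Irx5KO libraries, against 2.39 and 1.49 FPKM in WT libraries. The WT libraries were lower and less alike (log2 fold change 0.65, SE 0.192, adjusted p = 0.0285). The change was 0.66 without Irx5KO replicate 1 and 0.64 without Irx5KO replicate 2. It was 0.87 without WT replicate 1 and 0.43 without WT replicate 2.

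**Figure D3:**
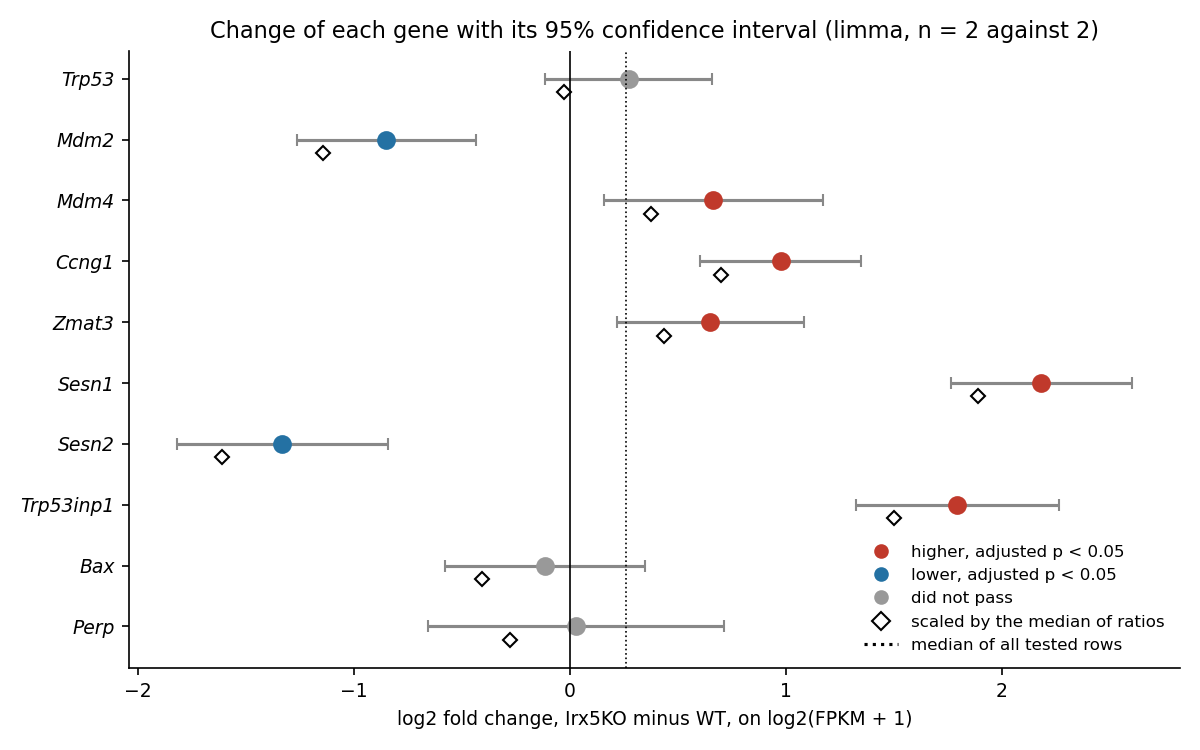
Log2 fold change of each gene (circles, Irx5KO minus WT on log2(FPKM + 1)) with its 95% confidence interval, the same after scaling by the median of ratios (diamonds) and the median of all tested rows (dotted line at 0.26). Sesn1 at 2.18 and Trp53inp1 at 1.79 lie farthest to the right and Sesn2 at -1.33 and Mdm2 at -0.85 to the left, on either scale.

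Bax, the pore-forming protein that opens mitochondria in cell death, and Perp, a membrane protein of desmosomes that p63 drives in skin, did not pass. Bax (chromosome 7, 45461697 to 45466898) had 27.8 and 28.3 FPKM in Irx5KO libraries, against 36.6 and 25.2 FPKM in WT libraries. The WT values lay on both sides of the Irx5KO values (log2 fold change -0.11, interval -0.58 to 0.35, adjusted p = 0.684). Gm45808, an annotated gene on the same strand, shares 192 exonic bases with Bax and could share its reads. Perp (chromosome 10, 18845020 to 18857073) had 2241 and 2456 FPKM in Irx5KO libraries, against 2201 and 2400.48 FPKM in WT libraries. The values interleaved (log2 fold change 0.03, interval -0.66 to 0.71, adjusted p = 0.948), and the width of the interval leaves room for a change in either direction. Quantile normalization gave Perp a change of 0.49 and the median of ratios one of -0.28, and neither passed (adjusted p = 0.0708 and 0.481). Of the 9 desmosome genes whose products Perp joins, 8 were tested. In limma 0 of the 8 passed at the adjusted p or at an unadjusted p below 0.05, with a median change of 0.04. Of all tested rows 36.1% were called at the adjusted p, and their median change was 0.26. In TPM and under quantile normalization 2 of the 8 were higher (Dsp and Pkp1). Of all 11643 tested rows 5577 were higher in TPM and 1516 under quantile normalization. Trp63, the gene of p63, had 191 and 144 FPKM in Irx5KO libraries, against 85 and 86.4 FPKM in WT libraries. It rose by 0.95 (adjusted p = 0.00871), a call lost without Irx5KO replicate 1 and after scaling by the median of ratios, while Trp73, the gene of p73, had 2.54 and 2.32 FPKM in Irx5KO and 1.98 and 1.49 FPKM in WT libraries (adjusted p = 0.157).

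The levels of the 10 genes, which FPKM allows to be compared per length, stood in another order in the genotypes. Perp was far above all others in every library. In Irx5KO libraries Sesn1 came next, then Trp53inp1, Trp53 and Bax, each without overlap with the next. Mdm4 and Mdm2 followed and overlapped, with Ccng1, Sesn2 and Zmat3 below them in that order and apart. In WT libraries Trp53, Mdm2 and Bax came after Perp and overlapped. Sesn2, Trp53inp1, Sesn1 and Mdm4 followed, each overlapping with its neighbour, and Ccng1 and Zmat3 were again the lowest.

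Further targets and regulators of p53, from lists chosen with earlier results of these data known, were read by function. The counts of each list stand beside 26.9% of all tested rows called higher and 9.22% called lower. After scaling by the median of ratios these shares were 10.5% and 13.9%. Of the 11 tested genes of arrest and growth 6 fell and 2 rose, with a median of -1.77, against 0.26 for all tested rows. Cdkn1a, the inhibitor of cyclin-dependent kinases through which p53 stops the cell cycle, had 152 and 211 FPKM in Irx5KO libraries, against 594 and 632 FPKM in WT libraries (log2 fold change -1.77, adjusted p = 0.00101). Sfn, the gene of the epidermal adaptor 14-3-3 sigma, had 522 and 773 FPKM in Irx5KO and 3979 and 4464 FPKM in WT libraries (-2.73, adjusted p = 4.92e-04). Gadd45a, a growth arrest gene, had 1.99 and 3.18 FPKM in Irx5KO and 16.4 and 16.04 FPKM in WT libraries (-2.28, adjusted p = 1.14e-04). Plk2 and Plk3, polo-like kinase genes, and the antiproliferative gene Btg2 fell as well, with changes of -2.26 for Plk2, -2.96 for Plk3 and -2.48 for Btg2. The immediate-early sum was lower in the same libraries, and its part in these 6 changes was not tested. The 6 genes were lower under all 3 scalings and without any single library. The genes that rose were Pml, the scaffold of nuclear bodies (0.63, adjusted p = 0.0213), and Cdip1 (0.59, adjusted p = 0.0228), both lost after scaling by the median of ratios and without Irx5KO replicate 1 or 2, and Pml also without WT replicate 2. The list had 1 higher gene without Irx5KO replicate 1 or WT replicate 2 and 0 without Irx5KO replicate 2.

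Of 12 tested targets of repair and metabolism 6 rose and 1, Sesn3, fell, beside 26.9% and 9.22% of all tested rows. Their median was 0.53, against 0.26 for all tested rows. Ddit4, a stress-induced inhibitor of mTORC1, had 126 and 179 FPKM in Irx5KO libraries, against 47.4 and 34.6 FPKM in WT libraries (1.86, adjusted p = 8.03e-04). Xpc, which recognises damage for nucleotide excision repair, had 20.9 and 15.1 FPKM in Irx5KO and 9.5 and 7.02 FPKM in WT libraries (1.03, adjusted p = 0.00709). Ercc5, a nuclease of the same pathway, rose by 0.70 (adjusted p = 0.0151) and Polk, a polymerase that copies past lesions, by 0.66 (adjusted p = 0.0179). Rrm2b, a subunit of ribonucleotide reductase, rose by 0.70 (adjusted p = 0.0205) and Tigar, a regulator of glycolysis, by 0.60 (adjusted p = 0.0359). Ddit4 and Xpc remained higher after scaling by the median of ratios, where 2 of the list passed upward and 2 downward (10.5% and 13.9% of all rows). The number of higher genes changed with the library left out, as did that of all tested rows. Sesn3 was the lower gene whose call depended on single libraries.

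Targets of cell death were mixed, with 2 of 12 tested genes higher and 3 lower, beside 26.9% and 9.22% of all tested rows. Their median was -0.01, against 0.26 for all tested rows. Pmaip1, the gene of the killer protein Noxa, had 4.13 and 5.93 FPKM in Irx5KO libraries, against 23.9 and 53.5 FPKM in WT libraries. The WT libraries differed widely from each other and both were far above the Irx5KO libraries (-2.63, adjusted p = 7.66e-04). Aen (-0.54, adjusted p = 0.0438), an apoptosis-enhancing nuclease gene, and Tnfrsf10b (-0.51, adjusted p = 0.0378), a death receptor gene, fell. Eda2r (0.53, adjusted p = 0.03) and Ei24 (0.59, adjusted p = 0.0404) rose, and these 4 calls were each lost without Irx5KO replicate 1 or 2 or WT replicate 2. Without Irx5KO replicate 1 or 2 the list had 0 higher and 1 lower gene, and after scaling by the median of ratios it had 0 higher and 5 lower, with 1 of each without WT replicate 2. Bbc3, the gene of Puma, had 7.11 and 8 FPKM in Irx5KO and 8.99 and 10.4 FPKM in WT libraries (adjusted p = 0.171). Fas, a death receptor gene, overlapped between the genotypes.

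In the Bcl2 family, of which Bax is a member, 1 of 12 tested genes rose and 3 fell, beside 26.9% and 9.22% of all tested rows. Their median was 0.22, against 0.26 for all tested rows. Bmf, a killer protein that senses loss of attachment, had 6.4 and 5.67 FPKM in Irx5KO libraries, against 1.32 and 0.9997 FPKM in WT libraries (1.71, adjusted p = 2.39e-04). Mcl1, a protector of mitochondria, had 71.8 and 93.4 FPKM in Irx5KO libraries, against 148 and 168 FPKM in WT libraries (-0.94, adjusted p = 0.00914). Bok, a relative of Bax, had 20.5 and 22.4 FPKM in Irx5KO and 39.5 and 38.2 FPKM in WT libraries (-0.83, adjusted p = 0.0062), and the third lower gene was Pmaip1. The calls of Mcl1 and Bok were lost without Irx5KO replicate 1, and 4 genes of the family were higher without WT replicate 1. The protectors Bcl2 (2.42 and 2.42 FPKM in Irx5KO, against 1.85 and 1.74 FPKM in WT) and Bcl2l1 (19.4 and 21.7 FPKM in Irx5KO, against 17 and 11.7 FPKM in WT) did not pass (adjusted p = 0.181 and 0.0792). The ratio of Bax to Bcl2 was 11.5 and 11.7 in Irx5KO and 19.8 and 14.5 in WT libraries (difference -0.40 on log2(FPKM + 1), two-sided exact permutation p = 0.33).

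**Figure D4:**
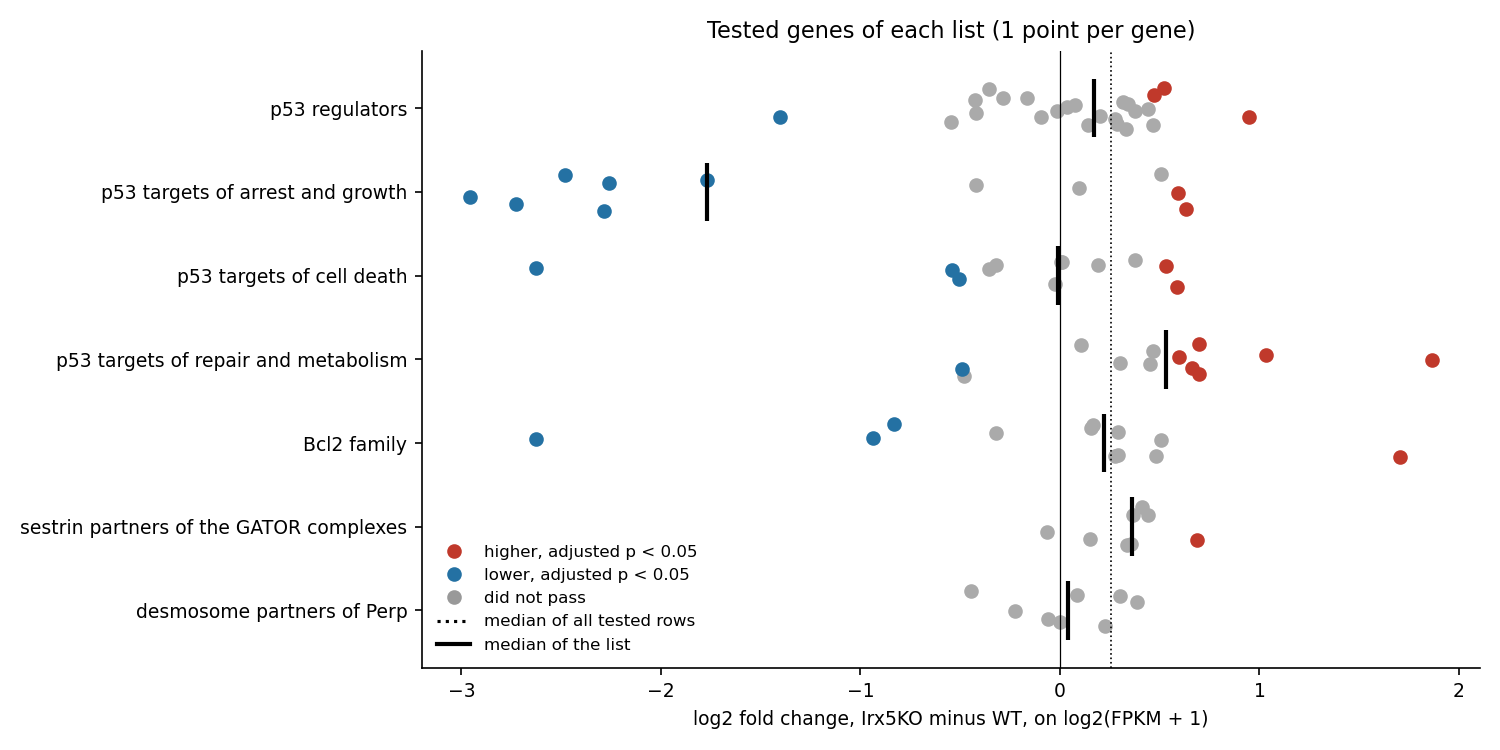
Log2 fold change (Irx5KO minus WT on log2(FPKM + 1)) of every tested gene of the lists, 1 point per gene, coloured by call, with the median of each list (bar) and of all tested rows (dotted line). Targets of arrest and growth have their median at -1.77 and targets of repair and metabolism at 0.53.

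Among 24 tested regulators of p53, 3 rose and 1 fell, beside 26.9% and 9.22% of all tested rows. Their median was 0.17, against 0.26 for all tested rows. Sirt1, which encodes a deacetylase that acts on p53, had 14.1 and 14.6 FPKM in Irx5KO libraries, against 29.1 and 53.9 FPKM in WT libraries (-1.40, adjusted p = 0.00465). Ube4b, which encodes a ubiquitin ligase that works with MDM2, rose by 0.52 (adjusted p = 0.0352), and Chek2, the checkpoint kinase gene, by 0.47 (adjusted p = 0.0444), next to Trp63. Chek2 was above 1 FPKM only in the Irx5KO libraries (1.67 and 1.49 FPKM, against 0.881 and 0.832 FPKM in WT), which alone brought it past the filter. Both calls were lost after scaling by the median of ratios, which left 0 regulators higher and 4 lower, and without Irx5KO replicate 1 or 2, and that of Chek2 also without WT replicate 1 or 2. Without Irx5KO replicate 1 there were 0 higher and 1 lower, without Irx5KO replicate 2 there was 1 of each, and without WT replicate 1 there were 2 higher and 3 lower. Atm, the damage kinase gene, had 3.48 and 2.62 FPKM in Irx5KO and 1.81 and 2.03 FPKM in WT libraries and did not pass (adjusted p = 0.0677). Cdkn2a, which encodes the MDM2 inhibitor Arf, was listed at 0 in all 4 libraries.

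**Figure D5:**
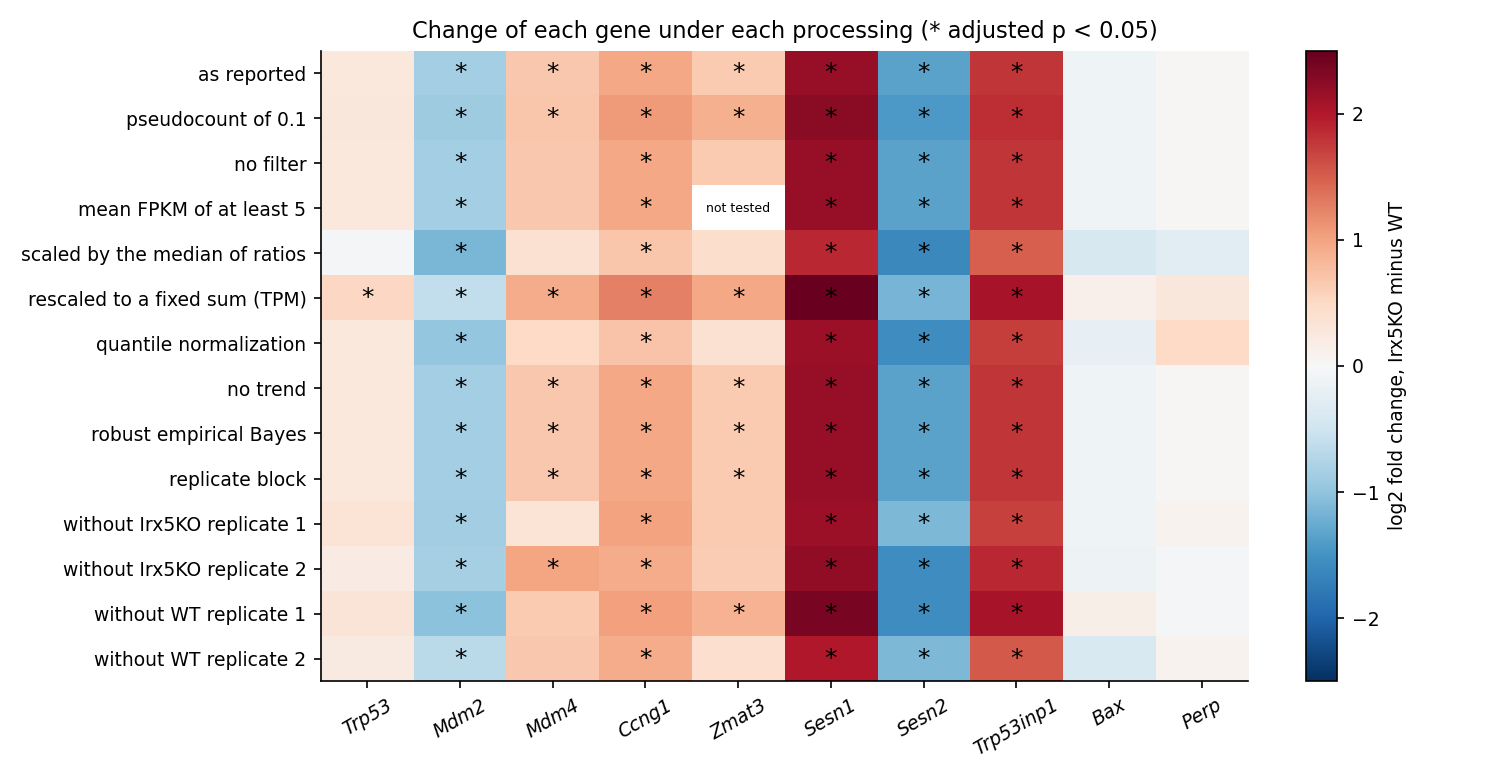
Log2 fold change of the 10 genes (colour, Irx5KO minus WT) in the values as reported and under each alternative processing, with a star where the adjusted p is below 0.05. Mdm2, Ccng1, Sesn1, Sesn2 and Trp53inp1 carry a star in all 14 lines, Mdm4 and Zmat3 in some, Trp53 in 1, and Bax and Perp in 0.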

How the data were processed

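The table holds 23847 rows of FPKM, 1 column per library, deposited by the authors. Bowtie2, DESeq2 and the build mm10 are named in the submitters' processing notes, and how the FPKM were made and with which annotation is not given in the sources used here. Counts were not used, and depth was estimated from low values of genes with 1 transcript, 68.6% to 70.5% of which lay within 0.1 of a whole fragment (20% by chance, assumed fragment 200 bases). Rows of at least 1 FPKM in at least 2 libraries were tested with limma 3.58.1 (R 4.3.3) on log2(FPKM + 1), with an intensity trend, 2-sided, and Benjamini-Hochberg adjustment over 11643 rows. The pseudocount understates changes of low genes. The fit was tested on simulated data with 200 changed rows and no shift of the other rows. That test does not show how the fit behaves where the median row shifts, as it did here. Of 174 listed symbols 172 matched, 3 through RefSeq synonyms. Named were the 10 genes, Irx5, sex-linked genes, set family members, marker genes, and up to 4 genes of smallest p per list and direction; Btg2, Rrm2b and Tigar beyond these, and Trp53inp2, Bbc3, Fas, Atm, Cdkn2a, Depdc5 and Mios, were chosen after their values were seen. Genes and lists were chosen with earlier results of these data known. Positions are 1-based, from GENCODE M21. Strand-specific counting is not stated. Alternatives were another pseudocount, other filters, scalings and variance settings, a replicate block and leaving out each library.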

Additional observations from a re-analysis of the deposited data

How the results depend on the processing

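With 2 libraries per genotype every p rests on the spread that limma shares across rows. Of the 10 genes, Mdm2, Ccng1, Sesn1, Sesn2 and Trp53inp1 kept direction and call in all 13 alternatives. With no filter, Mdm4 (0.66, adjusted p = 0.152) and Zmat3 (0.65, adjusted p = 0.119) did not pass. At a mean of at least 5 FPKM Mdm4 did not pass (0.66, adjusted p = 0.0508) and Zmat3 was not tested. Under the median of ratios the changes of Mdm4 (0.38) and Zmat3 (0.43) did not pass, and those of Trp53 (-0.026) and Perp (-0.28) turned sign. Under quantile normalization Mdm4 (0.50) and Zmat3 (0.37) did not pass, and Perp was at 0.49 (adjusted p = 0.0708). In TPM Trp53 passed (0.52), Bax turned sign (0.13) and Perp was at 0.28. Leaving out single libraries, Mdm4 ranged from 0.34 to 0.99 and Zmat3 from 0.43 to 0.87, each passing in 1 of 4 cases. Perp ranged from -0.037 (without Irx5KO replicate 2, and -0.033 without WT replicate 1) to 0.095, and Bax from -0.37 to 0.15 (without WT replicate 1). The causes were not tested.

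The number of the 10 genes called higher was 3 with no filter, with a mean of 5 FPKM or more, under the median of ratios or in quantile normalization, and 3 or 4 without single libraries. Rows called higher numbered 1289 with no filter, 1898 at a mean of at least 5 FPKM, 1226 under the median of ratios, 5577 in TPM and 1516 under quantile normalization, and 1457 (without Irx5KO replicate 1) to 4048 (without WT replicate 1) without single libraries, with 1592 without Irx5KO replicate 2. Rows called lower numbered 712 with no filter, 1613 under the median of ratios and 725 to 1275 without single libraries. The pathway genes are the tested genes of the lists of p53 regulators and targets, the Bcl2 family, the sestrin partners and the desmosome genes. Of these 84, 15 were higher and 13 lower as reported, beside 26.9% and 9.22% of all tested rows. The higher ones came to 3 with no filter, 8 at a mean of at least 5 FPKM, 3 under the median of ratios, 36 in TPM, 7 under quantile normalization and 4 to 22 without single libraries, and the lower ones to 7 with no filter, 19 under the median of ratios and 8 to 16 without single libraries. In TPM 9 regulators were higher and 1 lower, 3 and 6 targets of arrest and growth, 3 and 1 of cell death, 8 and 0 of repair and metabolism, and 5 and 3 of the Bcl2 family. The difference of Mdm4 and Trp53 ranged from -0.011 (without Irx5KO replicate 1) to 0.80 (without Irx5KO replicate 2).

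Same-numbered libraries did not deviate together (correlation of deviations -0.07 over 11643 rows). This correlation cannot show whether same-numbered mice were littermates or were processed together, so any pairing of the mice is not known. A replicate block gave 3301 higher and 1166 lower rows and 5 higher and 2 lower of the 10 genes, with Sesn1 at 2.18 and Mdm2 at -0.85.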

Other observations

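Partners of the sestrins in the GATOR complexes, which pass amino acid supply on to mTORC1, were tested beside Sesn1 and Sesn2. Of 8 tested, 1 rose and 0 fell, beside 26.9% and 9.22% of all tested rows. Their median was 0.36, against 0.26 for all tested rows. The gene that rose was Wdr24, a GATOR2 subunit, with 8.45 and 8.32 FPKM in Irx5KO and 5.81 and 3.98 FPKM in WT libraries (log2 fold change 0.69, adjusted p = 0.0247 in limma). In TPM 6 of the 8 rose, where 5577 of all 11643 tested rows were higher. Under the median of ratios 0 of the 8 rose, where 1226 of all tested rows were higher. Wdr24 did not pass under the median of ratios or without Irx5KO replicate 1 or 2 or WT replicate 2. Depdc5, a subunit of GATOR1, had 3.82 and 3.07 FPKM in Irx5KO and 2.12 and 2.56 FPKM in WT libraries and did not pass (adjusted p = 0.0971). At an unadjusted p below 0.05 in limma, 3 of the 8 were higher, Wdr24, Depdc5 and Mios. Of all tested rows 26.9% were higher already at the stricter adjusted threshold, so the 3 were not read as a result about the list.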
